A study of Mus musculus with 10 samples.

Results

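The 10 genes described here, Pax8, Pax2, Epcam, Cdh1, Cdh16, Lrp2, Cubn, Slc9a3, Cldn2 and Esr1, are genes of duct epithelium and of its uptake of fluid and protein. They were picked by symbol out of 56691 genes in the deposited count table, with their counts in these same 10 libraries already known, so their levels by library are a description and are not tested. The table holds poly(A) RNA of visceral adipose tissue from male mice aged 10 weeks that had been given chow for 8 weeks, with 1 library per mouse. WT mice (WT1 to WT5) are 5, and aADM2-tg mice (tg1 to tg5), which overexpress adrenomedullin 2 in adipose tissue by the study's title, are also 5. The sources used here name neither the promoter of the transgene nor the strain or the fat depot, and the labels also call the material mature adipocytes.

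The efferent ducts carry sperm and fluid from the testis to the epididymis. Their absorptive cells take up sodium and water, and protein of this fluid by endocytosis, while ciliated cells between them keep the fluid moving. Pax2 and Pax8 specify the embryonic duct from which kidney tubules and male ducts form, and kidney tubules use several of the same genes for reabsorption. The receptor encoded by Esr1 is needed for fluid reabsorption in mouse efferent ducts. Fat cells and their precursors also make this receptor.

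Counted reads numbered 16030435 to 18214504 per library, and a count of 0 allows up to 3 counts, which is 0.165 to 0.187 counts per 1e6 counted reads (CPM). The first header line of the table names the columns in the opposite sense to the sample labels and the second header line, and the groups here follow the labels, so every direction between groups rests on them. Adm2, the overexpressed gene, had 2 counts in WT3 and 0 in the other 9 libraries and does not check the labels. The adipocyte markers (8 of 8 detected in each library) summed to 19439 to 22159 CPM in WT and 22028 to 31214 CPM in aADM2-tg, with Fabp4, the fatty acid carrier of fat cells, highest among them in CPM, and 5 of the 8 were called higher in aADM2-tg by edgeR, beside 13.8% of all tested genes. That count was 1 without WT2, 1 without WT4, 2 without WT3, 3 without any one of tg1, tg3 and tg4, and 0 without WT2 to WT5 and tg2. RNA of mesothelial, duct and germ cell genes was also found, at levels that differed widely between libraries. The tissue source of the duct and germ cell genes was not tested. In bulk tissue, fewer cells of a type and less RNA per cell cannot be told apart.

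Transcripts of 8 of the 10 genes were high in tg2 and in WT2 to WT5 but low or at 0 in WT1, tg1, tg3, tg4 and tg5. Cubn and Esr1 did not follow this order. All 10 genes had their highest level in tg2, and for the 8 genes WT5 was the lowest of the 5 high libraries. WT1 thus lay with 4 of the transgenic libraries, and tg2 with 4 of the WT libraries. Values below are given in the order of the library numbers.

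Pax8 (ENSMUSG00000026976, chromosome 2, 24310572 to 24365611, minus strand, in the file's own coordinates, for which no source used here names a build) encodes a transcription factor of duct, kidney tubule and thyroid epithelium. WT1 to WT5 had 0.0554, 10.9, 11.8, 9.59 and 5.79 CPM of it. The transgenic libraries tg1 to tg5 had 0, 20.5, 0, 0 and 0.536 CPM. The groups overlapped, because tg2 lay above every WT library and WT1 lay below tg5. Its relative Pax2 (ENSMUSG00000004231, chromosome 19, 44744484 to 44826310, plus strand) acts beside it in the embryonic duct. Pax2 stood at 0, 1.63, 2.42, 1.41 and 0.843 CPM in the WT libraries and at 0, 4.02, 0, 0 and 0.238 CPM in the transgenic ones. The tg5 value of Pax2 is 4 counts, just over the limit that a count of 0 allows.

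Of the adhesion genes, Epcam (ENSMUSG00000045394, chromosome 17, 87943407 to 87958557, plus strand) encodes a surface protein of simple epithelia. Its WT values were 0, 38.4, 34.7, 30.5 and 11.5 CPM. Its aADM2-tg values were 0.480, 45.1, 0.187, 0.110 and 1.37 CPM. Only tg2 of its group reached the range of WT2 to WT5.

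Cdh1 (ENSMUSG00000000303, chromosome 8, 107329983 to 107396878, plus strand), which encodes E-cadherin of epithelial junctions, was at 0.554, 19.7, 19.1, 18.5 and 10.1 CPM in WT. In aADM2-tg it was at 0.480, 30.5, 0, 0.604 and 0.834 CPM. The 4 low transgenic libraries and WT1 lay within 1 CPM of each other. Cdh16 (ENSMUSG00000031881, chromosome 8, 105328543 to 105351028, minus strand) encodes the kidney-specific cadherin, which is known from kidney tubules and other ducts. WT libraries held 0, 35.4, 30.4, 25.9 and 13.5 CPM of Cdh16. Transgenic libraries held 0, 47.2, 0, 0 and 1.85 CPM. Among the low libraries, tg5 was the only one with any Cdh16 count, at 31 counts.

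The endocytic receptor gene Lrp2 (ENSMUSG00000027070, chromosome 2, 69254684 to 69416409, minus strand) encodes megalin, which brings proteins of duct or tubule fluid into absorptive cells. From WT1 to WT5 its level was 10.5, 128, 125, 102 and 53.7 CPM. From tg1 to tg5 it was 10.6, 129, 4.74, 1.59 and 2.32 CPM. Lrp2 was above the limit of 3 counts in every library, with 189 counts in WT1 and 176 in tg1, where Cdh16 had 0. Mesothelial cells line the surface of visceral fat. Their 8 markers, all detected in every library, summed to 303 CPM in WT1, 359 in tg1, 202 in tg3, 136 in tg5 and 56.4 in tg4. The marker Upk3b stood at 92.6 CPM in WT1, 129.5 in tg1, 73.0 in tg3, 45.5 in tg5 and 17.8 in tg4. These 5 libraries came in the same order by Lrp2 as by the mesothelial sum, and the part of mesothelial RNA in the Lrp2 level was not tested. The mesothelial sum was 110 CPM in tg2, where Lrp2 was highest. None of the 8 mesothelial genes was called between genotypes with all libraries, where 26.5% of all tested genes were. Without tg1, 2 were called lower, beside 10.7% of all tested genes.

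Cubn (ENSMUSG00000026726, chromosome 2, 13281149 to 13496624, minus strand) encodes cubilin, the partner of megalin in protein uptake. It stayed low in every library. The WT libraries had 0.775, 1.29, 1.12, 1.19 and 1.18 CPM. The aADM2-tg libraries had 0.420, 1.71, 0.250, 1.15 and 0.477 CPM. Library tg4, with 0 counts of Pax8, Pax2 and Cdh16, lay within the WT range. The gene had 166 counts over all libraries, against 287 for Gm13270, whose span overlaps that of Cubn on the opposite strand. No strand setting is stated and overlap of their exons was not checked, so mixing of their reads was not tested. Amn, whose product anchors cubilin in the membrane, stayed at or under 0.671 CPM. Dab2, the adaptor of megalin, was at 156 to 240 CPM in tg2 and in WT2 to WT5. Its level in WT1, tg1, tg3, tg4 and tg5 was 69.4 to 126 CPM.

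Of the transport genes, Slc9a3 (ENSMUSG00000036123, chromosome 13, 74269576 to 74317561, plus strand) encodes the apical sodium-proton exchanger NHE3. Its level in WT was 0.166, 17.1, 12.7, 11.7 and 7.02 CPM. In aADM2-tg its level was 0.0600, 23.2, 0.0624, 0 and 0.0596 CPM. WT5, the lowest of the high libraries, had 125 counts, and WT1, the next, had 3 counts. Cldn2 (ENSMUSG00000047230, chromosome X, 138701577 to 138712135, plus strand) encodes claudin-2, a tight junction protein that forms a cation and water pore. Cldn2 was at 0, 64.2, 58.3, 54.7 and 25.9 CPM in WT. The transgenic values were 0.0600, 98.8, 0.0624, 0.275 and 2.74 CPM, so that tg5 held the only Cldn2 signal above 5 counts among the 5 low libraries.

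Esr1 (ENSMUSG00000019768, chromosome 10, 4561593 to 4955614, plus strand) was abundant in all 10 libraries. WT levels were 65.8, 115, 119, 127 and 74.8 CPM. Transgenic levels were 73.6, 152, 81.7, 64.3 and 64.7 CPM. The groups overlapped, and tg3, with 0 counts of Pax8 and Cdh16, exceeded WT5. Libraries tg2, WT4, WT3 and WT2 (115 to 152 CPM) still lay above all others (64.3 to 81.7 CPM). The highest library was thus 152 CPM against 64.3 CPM in the lowest, a far smaller span than that of Cldn2.

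**Figure D1:**
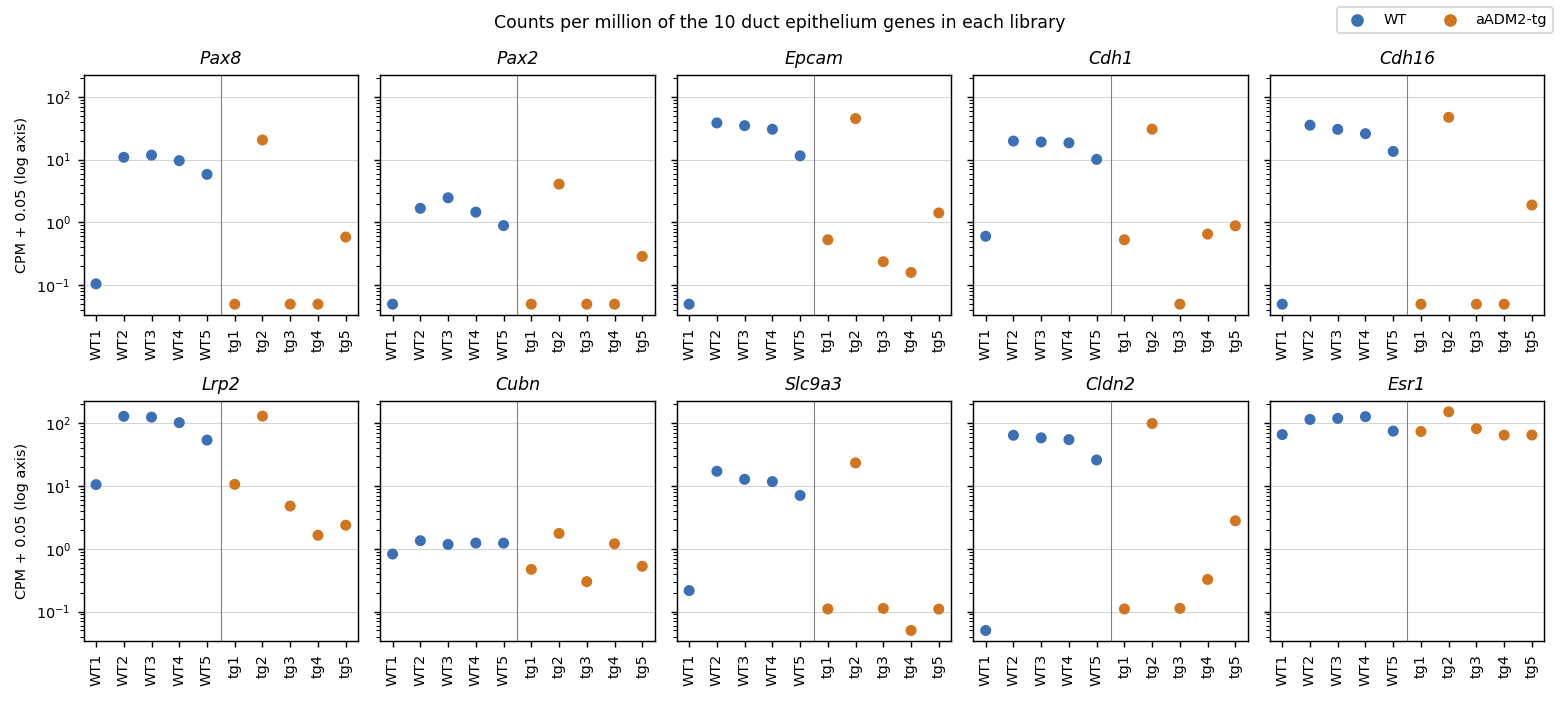
CPM of each of the 10 genes in each library on a log axis after adding 0.05 CPM, with WT in blue and aADM2-tg in orange. For 8 genes WT2 to WT5 and tg2 sit above the other 5 libraries, tg5 sits between them for Pax8, Epcam, Cdh16 and Cldn2, and Cubn and Esr1 show no such gap.

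Compared per length, as fragments per kilobase of exon and 1e6 counted reads (FPKM, computed from the counts), claudin-2 led the set in the high libraries. In tg2 the level of Cldn2 was 29.7 FPKM, followed by Epcam at 20.5, Cdh16 at 12.4, Esr1 at 11.1, Lrp2 at 7.74 and Cdh1 at 6.68 FPKM. Slc9a3 came to 4.22, Pax8 to 3.39, Pax2 to 0.744 and Cubn to 0.114 FPKM in that library. In WT5, the weakest of the 5, Cldn2 was still highest at 7.79 FPKM, with Esr1 at 5.47 and Epcam at 5.22 FPKM next. In WT1, by contrast, Esr1 stood at 4.81 FPKM and the next gene, Lrp2, at 0.626 FPKM.

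The promoter windows of some genes that rose and fell together across libraries are shown because they differ in their basal elements. RefSeq gave windows on GRCm38.p6, from 250 bases before to 50 after the start, for 8 of the 10 genes, with 11 windows in all. Capitals mark a TATA box (TATAAA), a GC box (GGGCGG) or an E-box bound by epithelial repressors (CACCTG), each on either strand.
Cldn2 (chrX:139800558-139800857, plus strand): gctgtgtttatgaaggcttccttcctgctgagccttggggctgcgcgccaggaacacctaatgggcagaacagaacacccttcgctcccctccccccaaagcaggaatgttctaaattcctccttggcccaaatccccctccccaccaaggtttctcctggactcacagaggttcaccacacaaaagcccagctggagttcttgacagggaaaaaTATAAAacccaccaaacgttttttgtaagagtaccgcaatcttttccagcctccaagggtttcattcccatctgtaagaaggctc
Epcam (chr17:87635729-87636028, plus strand): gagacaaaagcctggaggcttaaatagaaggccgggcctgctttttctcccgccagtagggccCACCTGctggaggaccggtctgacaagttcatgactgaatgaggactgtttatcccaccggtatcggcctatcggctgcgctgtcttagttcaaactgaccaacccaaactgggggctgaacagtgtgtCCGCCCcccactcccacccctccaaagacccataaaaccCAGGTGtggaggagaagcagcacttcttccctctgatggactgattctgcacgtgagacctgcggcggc
Slc9a3 (chr13:74121163-74121462, plus strand): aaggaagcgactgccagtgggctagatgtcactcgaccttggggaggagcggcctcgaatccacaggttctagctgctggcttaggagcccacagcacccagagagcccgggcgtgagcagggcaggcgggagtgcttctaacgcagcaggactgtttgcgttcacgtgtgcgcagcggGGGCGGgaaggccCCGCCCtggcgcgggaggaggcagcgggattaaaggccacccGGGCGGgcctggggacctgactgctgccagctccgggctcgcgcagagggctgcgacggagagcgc
Pax8 (chr2:24475550-24475849, minus strand): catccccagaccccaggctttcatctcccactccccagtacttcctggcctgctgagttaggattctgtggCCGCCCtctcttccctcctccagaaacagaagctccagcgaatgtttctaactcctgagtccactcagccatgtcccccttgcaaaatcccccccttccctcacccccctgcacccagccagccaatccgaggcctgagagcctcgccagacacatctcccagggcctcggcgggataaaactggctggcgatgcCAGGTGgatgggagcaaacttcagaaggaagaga
The TATA box stood 35 bases before the Cldn2 start, in 1 of the 11 windows and in 13.6% of all 32851 windows. The GC box was found in 6 of the 11 windows and in 35.7% of all windows, 3 times in that of Slc9a3. The E-box was found in 3 of the 11 windows, those of Epcam, Pax8 and 1 of the Pax2 windows, and in 20.2% of all. AGGTCA, the hexamer read by estrogen and other nuclear receptors, was in 0 of the 11 windows and in 16.3% of all windows. No 2 of these motifs overlap in the printed windows. These matches are letters in a short window and say nothing of binding.

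Each gene was set against Cldn2, as the share of its own counts in the sum of its own and Cldn2 counts, in the 6 libraries with at least 20 Cldn2 counts. The intervals are exact 95% binomial (Clopper-Pearson) intervals and cover counting error only. Over WT2 to WT5 and then tg2, the share of Cdh16 was 35.5%, 34.3%, 32.1%, 34.2% and 32.3%. That of Pax8 was 14.5%, 16.8%, 14.9%, 18.3% and 17.2%, and the intervals of these 5 libraries overlapped for both genes. Epcam differed more, at 37.4%, 37.4%, 35.8%, 30.7% and 31.3%, and the intervals of WT5 (27.2 to 34.3%) and tg2 (29.4 to 33.2%) lay below that of WT2 (35.2 to 39.7%). Lrp2 was lower in tg2. Its share was 65.1% to 68.1% in WT2 to WT5 and 56.7% in tg2 (interval 55.1 to 58.3%), below the lower bounds of the 4 WT intervals, of which the lowest is 63.2%. Expressed as CPM, tg2 was above WT2 by 1.89-fold for Pax8, 2.47-fold for Pax2 and 1.54-fold for Cldn2 and by 1.01-fold for Lrp2. With 1 such library in aADM2-tg, this difference has no replicate check.

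Library tg5 held a small amount of some of these transcripts and not of others. It had 46 counts of Cldn2, 31 of Cdh16, 23 of Epcam, 14 of Cdh1 and 9 of Pax8, and its shares of Cdh16 (40.3%, interval 29.2 to 52.1%) and Pax8 (16.4%, interval 7.77 to 28.8%) overlapped those of the high libraries. The share of Lrp2 in tg5 was 45.9% (interval 35.0 to 57.0%). Slc9a3 had 1 count in tg5, a share of 2.13% (interval 0.0539 to 11.3%), against 17.6% to 21.3% in the 5 high libraries, whose lower bounds are 15.5% or more. The same was seen for Foxj1, the regulator of motile cilia, with 1 count in tg5, a share of 2.13% against 29.6% to 39.1%. Hnf4a, a transcription factor of absorptive epithelia, had 3 counts in tg5, a share of 6.12% (interval 1.28 to 16.9%) against 18.6% to 28.3%, and its interval overlaps that of WT5. Elf3, an epithelial transcription factor, kept a share of 20.7% in tg5 against 16.2% to 23.3%. Foxj1, Hnf4a and Elf3 were set against Cldn2 after their values were seen.

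**Figure D2:**
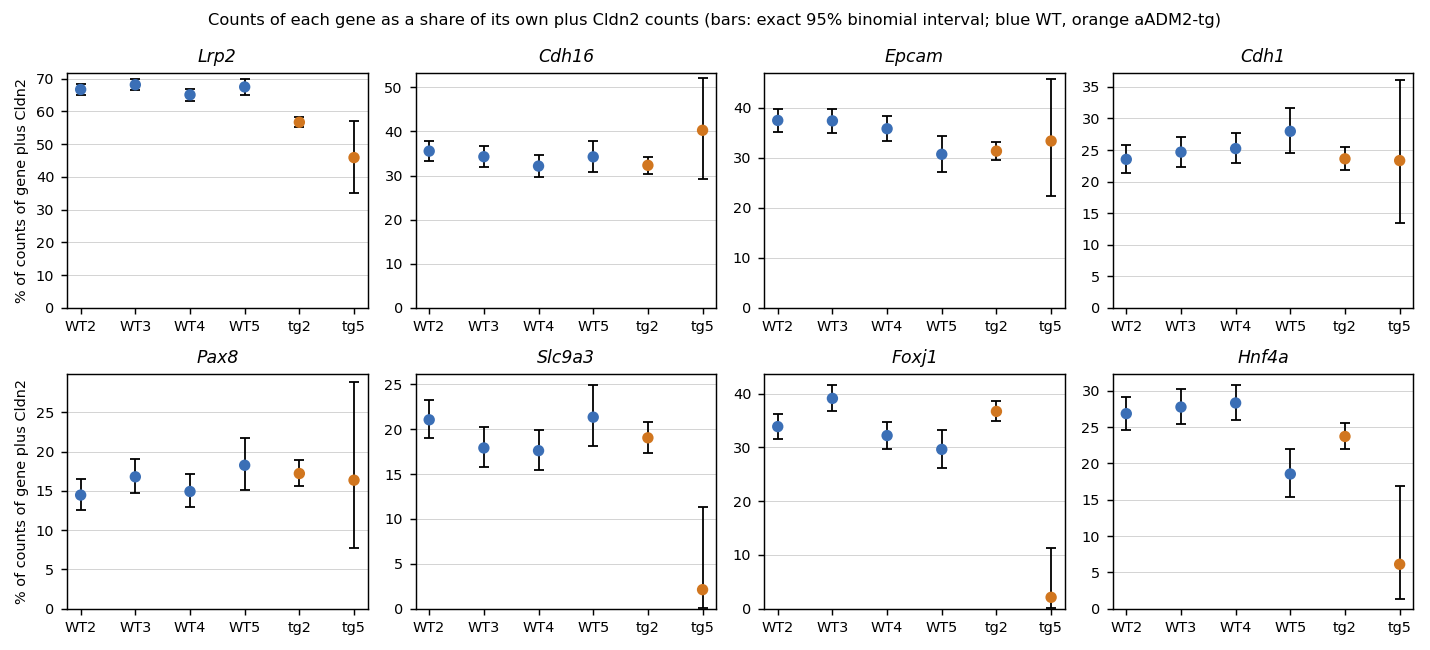
Counts of each gene as a percentage of its own plus Cldn2 counts in the 6 libraries with at least 20 Cldn2 counts, with exact 95% binomial intervals as bars, WT in blue and aADM2-tg in orange. In tg5 the shares of Slc9a3 and Foxj1 are 2.13% each, while the intervals of Cdh16, Epcam, Cdh1 and Pax8 in tg5 overlap those of the other libraries.

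Beside these values, tg5 and WT3 stood apart in some genes of the epididymal epithelium, the duct that follows the efferent ducts. The 10 epididymal secretory genes summed to 152 CPM in tg5 and 105 in WT3, against 0.187 to 12.8 CPM in the remaining 8 libraries. Lcn5, a lipocalin of epididymal fluid, was at 67.6 CPM in tg5, 39.3 in WT3 and 1.74 CPM or less elsewhere. The list had 1 gene that could be tested between genotypes, and it was not called. Most of the remaining sum was Adam7, at 52.6 CPM in tg5 and 45.1 in WT3, and Rnase9, at 31.2 and 17.8 CPM. Lcn9 was at 0 in all libraries, and tg5 had 5 of the 10 genes at 0. The part of epididymal RNA in the tg5 counts of Cldn2, Cdh16 and Epcam was not tested.

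Motile cilia genes moved with the duct genes. The 9 cilia genes, none at 0 in tg2 or in WT2 to WT5, summed to 186, 181, 137 and 78.4 CPM in WT2 to WT5 and to 228 CPM in tg2. The other 5 libraries lay between 9.71 and 16.0 CPM. None of the 9 genes was called between genotypes with all libraries, where 26.5% of all tested genes were. Without tg2 all 9 were called lower (median log2 -5.45), beside 21.6% of all tested genes. Library tg2 is the only transgenic library with a high cilia sum, and the list was chosen with earlier results of these data known. Nothing is therefore read from this count. Foxj1 itself was at 57.2 CPM in tg2 and at 0 to 0.110 CPM in WT1, tg1, tg3, tg4 and tg5. Male germ cell genes did not keep to the same proportion. Their 9 markers summed to 206 CPM in WT2, 177 in WT3 and 214 in WT5, but to 13.4 in WT4. The markers summed to 16.7 CPM in tg2, the library with the highest duct gene levels, and to between 2.82 and 5.26 CPM elsewhere. All 5 of them that were tested were called lower in aADM2-tg by edgeR, beside 12.7% of all tested genes. Of these, Prm2, Odf1, Akap4 and Smcp were within the limit of 3 counts in tg1, tg3, tg4 and tg5. They passed the filter through the libraries where they are higher, so nothing is read from this count. This count rested on single libraries, with 1 of 5 called without WT2, 2 of 5 without WT3, 1 of 5 without WT5, 3 of 8 without tg3 and 8 of 8 without WT1 or tg2, and limma voom called 0 of 5. Prm2, which encodes a protamine of sperm, was at 63.6 CPM in WT5 and at 3.60 CPM in tg2.

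Because Pax8, Cdh16, Lrp2, Cubn and Slc9a3 are also kidney genes, and Pax8 a thyroid gene, the markers of those organs were read. Kidney markers summed to 0.443 to 5.26 CPM in WT and 0.540 to 5.12 CPM in aADM2-tg. Of the proximal tubule genes, Slc22a6, Slc22a8 and Kap were at 0 in all 10 libraries. Slc34a1, a phosphate transporter gene of the same tubule, was at 0.563, 1.24, 0.959 and 0.281 CPM in WT2 to WT5, at 1.28 CPM in tg2 and at 0 in the other 5, which are the high and low libraries of the duct genes. The part of kidney-type RNA in the duct gene levels was not tested. Umod, a gene of the kidney's thick ascending limb, was at 2.53, 2.72, 1.30 and 0.0562 CPM in WT2 to WT5, at 2.56 CPM in tg2 and at 0 elsewhere. The 4 thyroid markers summed to 0.125 to 0.780 CPM, with thyroglobulin (Tg) at 0.417 CPM at most and Nkx2-1 at 0 throughout. Seminal vesicle and prostate markers summed to 0 to 0.225 CPM in 9 libraries and to 2.42 CPM in tg4, where Semg1 was at 0.824 CPM. None of the kidney, thyroid, seminal vesicle and prostate markers reached the level needed for a test.

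**Figure D3:**
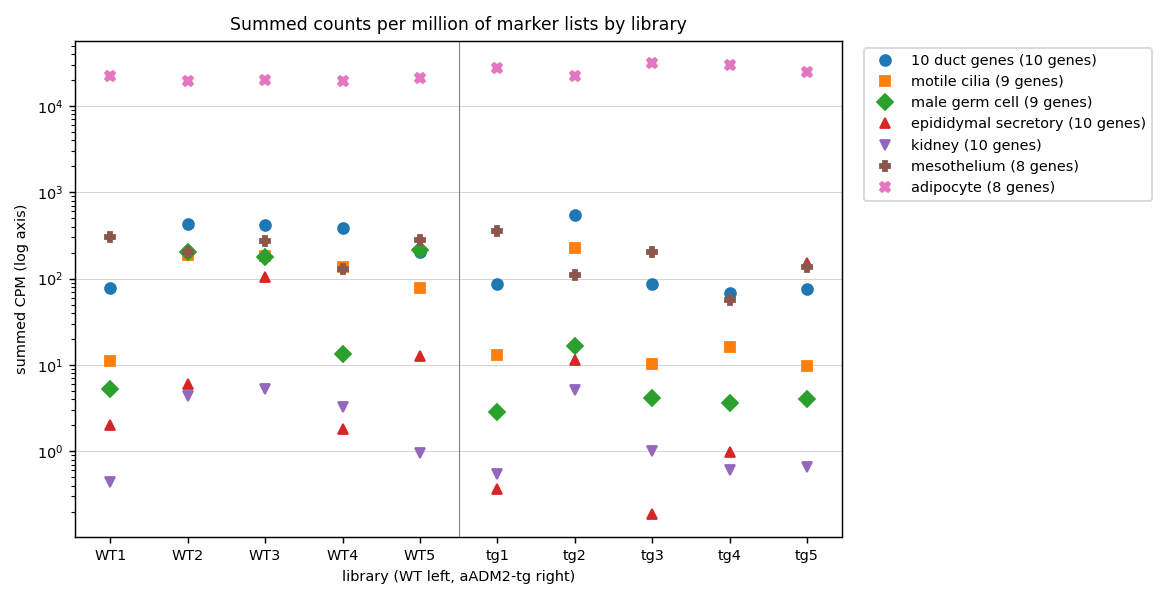
Summed CPM of the 10 duct genes and of 6 marker lists in each library on a log axis. The duct and cilia sums are high in WT2 to WT5 and tg2, germ cell sums are high in WT2, WT3 and WT5, epididymal sums are high in WT3 and tg5, and the adipocyte sum stays between 19439 and 31214 CPM.

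The study's comparison asks how visceral fat of aADM2-tg mice differs from that of WT mice. None of the 10 genes passed the test (edgeR quasi-likelihood test over 16591 genes, Benjamini-Hochberg adjusted p under 0.05), where 26.5% of all tested genes did. Unadjusted p was under 0.05 for 0 of the 10, and DESeq2 also called 0, where it called 31.4% of all genes it tested. All 10 passed the filter on low counts, and 7 of them had 0 counts in at least 1 library, so that they passed through the libraries where they are high. The fitted log2 change of aADM2-tg over WT was below 0 for all 10, with a median of -1.02 beside 0.02 over all tested genes. It ranged from -1.48 for Lrp2 (SE 1.07, adjusted p = 0.326) to -0.14 for Esr1 (SE 0.24, adjusted p = 0.690). Cldn2 went from 40.6 ± 27.1 to 20.4 ± 43.9 CPM (SD, n = 5 each, log2 -0.99, SE 1.46, adjusted p = 0.639 by edgeR), with an SD above the mean in aADM2-tg. Pax8 went from 7.61 ± 4.80 to 4.22 ± 9.13 CPM (SD, n = 5 each, adjusted p = 0.700 by edgeR). Cubn was at 1.11 ± 0.198 and 0.801 ± 0.612 CPM (SD, n = 5 each, log2 -0.42, adjusted p = 0.501 by edgeR).

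This outcome turned on tg2. Without that library 8 of the 10 genes were called lower in aADM2-tg, beside 21.6% of 16771 tested genes, with log2 changes from -7.47 for Slc9a3 (adjusted p = 0.00148 by edgeR) to -4.03 for Lrp2 (adjusted p = 0.00238). Cubn (log2 -0.86, adjusted p = 0.102) and Esr1 (log2 -0.41, adjusted p = 0.0906) were not called. The genes were picked with this contrast known, so nothing is read from the count. Leaving out WT2 to WT5 and tg2, which leaves WT1 against 4 transgenic libraries, gave 0 calls among the 7 genes still tested, beside 0.201% of all tested genes, with the spread of the single WT library taken from the transgenic ones. Limma voom with sample quality weights called Lrp2 lower (log2 -3.51, adjusted p = 0.0284) and none of the other 9, beside 16.9% of tested genes called lower by that tool. The median log2 change of the 10 genes was -4.24 with that tool, against -1.02 in the main fit. With a replicate block added to the main fit the median was -3.01, so the size of the fitted change depended on the model.

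**Figure D4:**
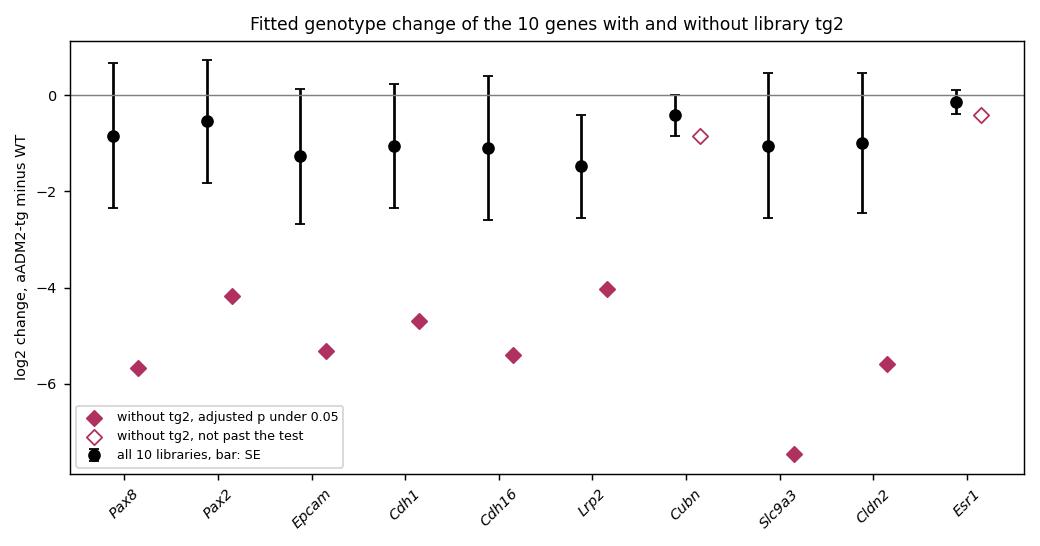
Fitted log2 change of aADM2-tg minus WT for each gene with all 10 libraries (black, bar is the SE) and without tg2 (diamonds, filled where adjusted p is under 0.05). With all libraries no gene passed the test, and without tg2 all but Cubn and Esr1 did.

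Other genes of reabsorption came from a list of 19, of which 17 were tested (median log2 -0.55). Of these, 1 was called higher and 2 lower in aADM2-tg, beside 13.8% and 12.7% of all tested genes. The other 14 were not past the test. Slc9a3r2, which encodes the scaffold NHERF2 that binds NHE3, rose from 54.2 ± 3.79 to 104 ± 15.6 CPM (SD, n = 5 each, log2 1.00, SE 0.12, adjusted p = 0.00104 by edgeR). Its 5 transgenic libraries lay at 87.6 to 128 CPM and its WT libraries at 48.5 to 57.8 CPM. Clcn5, the endosomal chloride-proton exchanger of megalin-dependent uptake, fell from 19.1 ± 2.89 to 10.4 ± 1.81 CPM (SD, n = 5 each, log2 -0.81, adjusted p = 0.00196 by edgeR). In WT1, where Slc9a3 had 3 counts, Slc9a3r2 was at 56.1 CPM and Clcn5 at 16.2 CPM. Neither Slc9a3r2 nor Clcn5 followed the library order of the duct genes. Slc4a4, a sodium bicarbonate cotransporter gene, fell from 64.2 ± 12.3 to 37.1 ± 15.4 CPM (SD, n = 5 each, log2 -0.74, adjusted p = 0.0260 by edgeR). The Slc4a4 call ended without any one of WT2, WT4, tg1, tg3, tg4 and tg5 (adjusted p = 0.0539 to 0.0683), with log2 changes of -0.73 to -0.64 in those fits. Slc4a4 reached 63.9 CPM in tg2 against 25.9 to 34.0 CPM in the other 4 transgenic libraries, and Clcn5 reached 13.5 CPM in tg2 against 8.76 to 10.5 CPM in those 4. Without tg2, 3 of the 17 were called higher and 10 lower, beside 18.2% and 21.6% of all tested genes. The list was chosen with earlier results of these data known, so nothing is read from these counts. Without WT2 to WT5 and tg2, which leaves 1 WT library, the median log2 change of the list was -0.10.

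Epithelial junction and keratin genes, 20 of 22 tested, had 0 called in either direction (median log2 -0.70), beside 26.5% of all tested genes. Krt8, a keratin of simple epithelia, stayed between 23.2 and 55.3 CPM in WT2 to WT5, reached 76.6 CPM in tg2 and was at 2.36 to 12.6 CPM in the other 5 libraries. Krt19, a keratin that mesothelium also makes, lay between 24.9 and 35.4 CPM in tg2 and in WT2 to WT5, and tg1, with the highest mesothelial sum, reached 31.1 CPM. Epithelial and duct transcription factors, 11 of 16 tested, had 0 called (median log2 -0.66), beside the same 26.5%. Elf3 reached 30.0 CPM in tg2, lay between 5.00 and 15.5 CPM in WT2 to WT5 and did not exceed 0.715 CPM elsewhere. Hnf4a reached 30.7 CPM in tg2, lay between 5.90 and 23.6 CPM in WT2 to WT5 and did not exceed 0.187 CPM elsewhere. Without tg2, 14 of the 20 junction genes and 7 of the 11 transcription factors were called lower, beside 21.6% of all tested genes. Both lists were chosen with earlier results of these data known, so nothing is read from these counts.

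Of the sex steroid signalling genes, 7 of 10 were tested (median log2 -0.60). Beside 12.7% of all tested genes, 2 of the 7 were called lower. Of these, Ncoa1, a coactivator of nuclear receptors, fell from 101 ± 9.21 to 78.7 ± 11.4 CPM (SD, n = 5 each, log2 -0.31, adjusted p = 0.0165 by edgeR). Esr2, the other estrogen receptor gene, was at 0.357 CPM or less in every library. Greb1, an estrogen-induced gene in breast cells, reached 42.4 CPM in tg2 and lay between 8.14 and 21.8 CPM in WT2 to WT5, against 0.110 to 0.655 CPM elsewhere, and was not called (adjusted p = 0.757 by edgeR). Without tg2, 5 of the 7 were called lower, beside the same 21.6%, and nothing is read from this count either. Without WT2 to WT5 and tg2, the median log2 change of the list was -0.26.

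The genes whose profile came closest to the set were sought by the root mean square difference, over the 10 libraries, between a gene's centred log2 CPM and the mean centred log2 CPM of the 9 genes other than Esr1. Of 13511 genes considered, Arhgef38, a guanine nucleotide exchange factor gene, came first with a difference of 0.32 on the log2 scale, and others among the first 10 were Prom1 (0.33), Mt3 (0.33), Sult1c2 (0.33), Pdzk1ip1 (0.34), Greb1 (0.35), Rmst (0.35), Ccdc187 (0.37) and Slc30a2 (0.39). The median over the genes considered was 2.68. Pax8 was itself at 0.45 and Cldn2 at 1.32, whereas Cubn was at 2.23 and Esr1 at 2.36. The difference takes in the size of the rise as well as the order of the libraries, and the prior count shrinks the rise of weak genes. Cldn2 and Pax8 had the same 5 highest libraries. Prom1, which encodes a protein of apical membrane protrusions, had 122 CPM in tg2, between 42.7 and 101 CPM in WT2 to WT5, 5.96 CPM in tg5 and 1.19 to 3.49 CPM in the other 4. The points share libraries and depth, and the order of the 10 libraries is the same one that marks the set.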

How the data were processed

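Poly(A) RNA of visceral adipose tissue from 5 WT and 5 aADM2-tg mice was sequenced. The deposited table gives whole-number counts of reads for each gene, per the file headers, and HISAT2 2.2.1 and HTSeq 0.6.1 are named in the submitters' processing notes. No source used here names the build, the annotation or a strand setting. The table also gives, per the file headers, each gene's exonic length, which was used for FPKM. The names tg3, tg4 and tg5 follow the numbers in the column names, because each of those names fits titles or descriptions of more than 1 sample. A further 10 columns of per-sample values were not used.

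The main test was edgeR 4.0.16 under R 4.3.3 (filterByExpr, TMM, quasi-likelihood test, genotype as the only term, Benjamini-Hochberg adjustment over all tested genes, threshold 0.05). The SE is the size of the log2 change over the square root of F. Printed CPM are per 1e6 of all counted reads, and log2 CPM used a prior count of 2. Alternatives were DESeq2 size factors, DESeq2 1.42.0, limma 3.58.1 voom with quality weights, other filters, a replicate block and libraries left out. The fits were also run on simulated data with the same dispersion for every gene and no library that stood apart. Those runs do not test the fits for genes like these, whose outcome turned on tg2. The genes, lists and tests were chosen with earlier results of these data known. Named are the 10 genes, up to 4 called genes of each of 4 pathway lists or its 2 most abundant, the most abundant marker of each of 8 cell type lists, and the 10 genes most alike in profile. Dab2, Amn, Esr2, Slc34a1, Slc22a6, Slc22a8, Kap, Lcn9, Adam7, Rnase9 and Nkx2-1 were named after their values were seen. Reads carried no molecular identifiers, so intervals and limits cover counting error only. The labels name no batch. Some genes that the naming rule selects are not reported here.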

Additional observations from a re-analysis of the deposited data

Results flagged for a closer look

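Within each group of 5 libraries, the gap from the highest or lowest library to its nearest neighbour was divided by the range of the group, and 25 of 69 groups checked passed Dixon's critical value of 0.71. Chance flags about 1 in 20 independent groups, but these genes and lists were chosen with their values known and repeat the same libraries, so the flags describe the libraries and are not read against that rate. The highest library was tg2 in 19 of them. Among the duct genes this ratio in aADM2-tg was 0.974 for Pax8, 0.941 for Pax2, 0.972 for Epcam, 0.973 for Cdh1, 0.961 for Cdh16, 0.930 for Lrp2, 0.997 for Slc9a3, 0.973 for Cldn2 and 0.802 for Esr1. Cubn was not past it in either group. Library tg2 also stood apart from its group in Slc4a4 (0.788), Krt8 (0.862), Elf3 (0.976), Hnf4a (0.998), Foxj1 (0.998), Prm2 (0.967) and Umod (1.000), and in the summed motile cilia (0.971), germ cell (0.902) and kidney (0.900) markers.

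The summed epididymal secretory markers stood apart in WT3 (0.893) and in tg5 (0.927), as did Lcn5 (0.956 in WT3 and 0.995 in tg5). In tg4 the seminal vesicle and prostate markers (0.950) and Semg1 (1.000) stood apart.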

How the results depend on the processing

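The count of the 10 genes called lower was 0 with all libraries and 0 to 8 when 1 library was left out, the 8 coming without tg2. Limma voom with quality weights called 1, and no setting run called any higher. The median log2 change of the 10 genes was -1.02 in the main fit, -4.24 with voom and -3.01 with the replicate block. Over the 4 pathway lists together, 1 gene was higher and 4 lower, with 1 to 3 higher and 3 to 36 lower when 1 library was left out, 14 lower with voom, and 0 in either direction without WT2 to WT5 and tg2. Over all genes, 2285 were higher and 2107 lower, with 1370 to 3050 higher and 1609 to 3629 lower when 1 library was left out. Without WT2 to WT5 and tg2 there were 1 higher and 34 lower. In that comparison the fitted log2 changes turned positive for Epcam (6.20, lowest -5.32 without tg2), Cdh16 (5.98, lowest -5.40), Cldn2 (6.74, lowest -5.59), Esr1 (0.067, lowest -0.412) and Krt19 (0.089, lowest -0.465), none called there. WT1 has 0 counts of Epcam, Cdh16 and Cldn2, so these fitted values depend on the prior count and are no fold changes. Pax8, Pax2 and Slc9a3 did not pass the filter there. The cause of these differences was not tested. Slc9a3r2, Clcn5, Slc4a4 and Ncoa1 lost their calls there (adjusted p = 0.0891 to 0.505), with log2 changes of 0.90, -0.79, -0.79 and -0.26 against 1.00, -0.81, -0.74 and -0.31 with all libraries.

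Same-numbered libraries deviated from their group means with correlations of 0.485, 0.674, -0.385, -0.255 and 0.0398. Only numbers 2 and 5 correlated best with their own number. The numbers of tg3, tg4 and tg5 are themselves uncertain, so these values cannot decide whether the samples were paired. With the replicate block, 0 of the 10 genes and 1853 genes higher and 2114 lower were called over all genes, and 1 and 6 in the lists. The block also called 1 of 9 cilia, 3 of 8 mesothelial and 4 of 5 germ cell markers lower, beside 12.7% of all tested genes. Without the low-count filter 2 of 8 adipocyte markers were called higher, beside 5.22% of all tested genes. No member failed the expression filter, so the permutation test planned for such genes was not needed. At this depth a gene with 0 counts may still be present at up to 0.165 to 0.187 CPM.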
